A study of Mus musculus with 5 samples.

Results

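The suppressor of cytokine signaling (SOCS) family is the set of 8 intracellular proteins Socs1 to Socs7 and Cish (also called CIS) that restrain cytokine receptors. When a cytokine binds, receptor-bound Janus kinases (JAKs) phosphorylate STAT transcription factors, and the STATs then switch on several SOCS genes, whose products act back on the receptor as a feedback brake. Each member carries an SH2 domain, which binds phosphorylated tyrosines, and a SOCS box, which recruits elongin B, elongin C, cullin 5 and Rnf7 to build a ubiquitin ligase. Socs1 and Socs3 also have a short region that blocks JAKs directly, Cish and Socs2 are best known as targets and regulators of STAT5-activating cytokines, and Socs4 to Socs7 are known mainly for adaptor and ligase roles at other receptors. Group 2 innate lymphoid cells (ILC2s), tissue-resident lymphocytes without antigen receptors, are maintained by IL-7 and other cytokines that signal through JAKs and STAT5.

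The members were taken by gene symbol from the deposited count table, in which 8 of 47729 genes carried one of the 8 names. RNA had been sequenced from unstimulated dermal ILC2s (dILC2s) sorted from the skin of female, young adult C57BL/6 mice, either wild-type (WT) or homozygous for a null allele of *Rag1* (Rag1-/-), the recombinase gene without which mature T and B cells do not form. Cells of 30 WT mice made 3 pools (pools 5, 6 and 13) and cells of 16 Rag1-/- mice by the labels (the methods give a different number) made 2 (pools 2 and 7), each pool giving 1 library of mixed animals. The sort took CD45+ CD90hi cells and set them apart from cells stained for CD2 and CD3. One label field names the cells of the Rag1-/- libraries as ILCs of type 3 and those of the WT libraries as type 2, whereas the protocols call the cells of both genotypes dILC2s. The only comparison of the design was Rag1-/- against WT, which asks whether dILC2s that develop without *Rag1* differ in transcript levels.

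Total counts were 32939428 to 39477243 in the WT libraries and 8050562 (pool 2) and 38922750 (pool 7) in the Rag1-/- libraries. The lowest count of any member in any library was 194 (*Socs6*, Rag1-/- pool 2), far above a floor of 3 counts, the least that could be told from 0. *Rag1* itself had 5 and 48 counts in the libraries labelled Rag1-/- against 4, 0 and 5 in WT, so its transcript was not lower there (log2 fold change 3.53, standard error 1.03, adjusted p = 0.0866, edgeR's quasi-likelihood test) and did not check the labels. The summed level of 26 genes expressed by all leukocytes ranged from 1128 to 2673 CPM (counts per 1000000 counts of the library) in WT libraries and from 7729 to 8847 CPM in Rag1-/- libraries, and 21 of the 26 were called higher. The summed level of 24 keratinocyte genes ranged from 34334 to 49141 CPM in WT libraries and from 8384 to 19976 CPM in Rag1-/- libraries, and 7 were called lower. All 13 genes of an ILC2 list were detected in every library and had positive fold changes, and 4 were called higher. *Gata3*, 1 of the 13, was at 199, 319 and 229 CPM in WT pools 5, 6 and 13. It was at 558 and 369 CPM in Rag1-/- pools 2 and 7 and was not called (log2 fold change 0.92, adjusted p = 0.0998, edgeR).

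Promoters of 4 members, *Cish*, *Socs1*, *Socs3* and *Socs4*, were found in RefSeq (GRCm38.p6), each read from 250 bases before the annotated start to 30 bases from it onward, 280 bases in all. They are shown for *Cish* and *Socs1*, the members with the clearest difference between genotypes, and for *Socs3*, the most abundant member of the family in WT libraries. The sequences run 5′ to 3′ on the strand of the gene, and capitals mark matches to TTCNNNGAA, the spaced palindrome bound by activated STAT dimers, or, in *Socs1*, to an interferon-response type of repeat, GAAA followed by any 2 bases and a further GAAA.
Cish, chr9:107296409-107296688, plus strand: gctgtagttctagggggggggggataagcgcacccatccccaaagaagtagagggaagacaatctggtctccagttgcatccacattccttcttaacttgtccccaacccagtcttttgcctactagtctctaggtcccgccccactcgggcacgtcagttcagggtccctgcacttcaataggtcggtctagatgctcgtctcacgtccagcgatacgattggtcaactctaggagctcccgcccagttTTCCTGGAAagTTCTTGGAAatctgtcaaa
Socs1, chr16:10785507-10785786, minus strand: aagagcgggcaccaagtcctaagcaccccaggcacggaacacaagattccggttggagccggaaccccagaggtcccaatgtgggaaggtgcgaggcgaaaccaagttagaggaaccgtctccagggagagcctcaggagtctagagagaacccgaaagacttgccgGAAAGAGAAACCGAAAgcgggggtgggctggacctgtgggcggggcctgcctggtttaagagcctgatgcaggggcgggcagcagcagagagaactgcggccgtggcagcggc
Socs3, chr11:117969337-117969616, minus strand: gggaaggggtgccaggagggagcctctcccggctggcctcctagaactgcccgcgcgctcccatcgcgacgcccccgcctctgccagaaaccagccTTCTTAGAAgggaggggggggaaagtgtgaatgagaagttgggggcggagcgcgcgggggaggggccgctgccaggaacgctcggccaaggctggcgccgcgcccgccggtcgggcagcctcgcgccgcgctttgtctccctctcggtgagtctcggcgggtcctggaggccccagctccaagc

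The *Cish* window held 2 matches to TTCNNNGAA, TTCCTGGAA at base 251, the RefSeq start itself, and TTCTTGGAA at base 262. Of 32817 promoter windows of the same length, 7.83% held at least 1 match and 0.408% held 2 or more. *Socs3* had 1 match, TTCTTAGAA at base 97, and *Socs1* and *Socs4* had none. The wider spacing, TTC and GAA with 4 bases between them, found in 6.5% of all windows, was in none of the 4. The search for the GAAA repeat was added after the *Socs1* sequence had been seen. *Socs1* held 2 overlapping matches, GAAAGAGAAA at base 168 and GAAACCGAAA at base 174, where 3.27% of all windows held 1 or more and 0.207% held at least 2, and the other 3 windows held none. Both spacings of TTC and GAA read the same on either strand, and the GAAA repeat was searched on both strands. These matches describe the letters of the windows only.

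The members fell into 3 sets: *Socs1*, *Cish* and *Socs2* were higher in Rag1-/- libraries, *Socs6* was lower without passing the threshold, and the remaining 4 differed less. A call needed both an adjusted p under 0.05 and a log2 fold change larger than 1 in size, from the quasi-likelihood test of edgeR with p-values adjusted by Benjamini and Hochberg's method over 19011 genes. All 8 members passed the filter on low counts, 3 were called higher and 0 were called lower. Over all genes tested, 3.57% were called higher, 2.16% lower and 5.73% in either direction. The median log2 fold change was 0.03 over the 8 members and 0.02 over all genes. At an unadjusted p under 0.05 (edgeR) there were 4 members, the 3 that were called and *Socs6*, beside 5022 of the 19011 genes. DESeq2 called the same 3 members, where it called 7.29% of all genes higher and 7.65% lower. On CPM scaled by the TMM method, which corrects for library composition, the genotypes did not overlap for 5 members, 3 higher and 2 lower, against 45.5% of all genes.

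*Socs1* (ENSMUSG00000038037, chr16:10783808-10785536), which blocks JAKs downstream of interferon and common gamma chain cytokine receptors, showed the largest difference in the family. Its level was 20.5, 30.5 and 23.2 CPM in WT pools 5, 6 and 13 and 77.3 and 84.2 CPM in Rag1-/- pools 2 and 7. Both Rag1-/- libraries lay above the highest WT library, with means of 80.7 ± 4.92 CPM (SD, n = 2) and 24.7 ± 5.17 CPM (SD, n = 3). The level rose 3.34-fold (log2 fold change 1.74, standard error 0.23, 95% interval 1.20 to 2.28, adjusted p = 0.0306, edgeR), and 4.12% of all genes tested had a higher log2 fold change.

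*Cish* (ENSMUSG00000032578, chr9:107296026-107302784), the first known member and a STAT5 target that restrains IL-2 and related receptors, had the highest level of the members that rose. It stood at 147, 221 and 160 CPM in WT pools 5, 6 and 13. The Rag1-/- libraries were close to each other, at 408 and 409 CPM, and above every WT library. *Cish* rose 2.37-fold (log2 fold change 1.25, standard error 0.24, 95% interval 0.68 to 1.81, adjusted p = 0.036, edgeR). On the opposite strand, 261 of its 6419 exonic bases overlap *Gm17040* (95 counts over the 5 libraries) and 479 overlap *Gm17041* (0 counts). The library kit does not mark strand, so reads from the shared bases cannot be assigned to one gene or the other.

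*Socs2* (ENSMUSG00000020027, chr10:95385362-95417180), a STAT5 target best known for limiting growth hormone signaling, was at 34.6, 45.0 and 50.3 CPM in WT pools 5, 6 and 13 and at 102 and 83.2 CPM in Rag1-/- pools 2 and 7. The groups did not overlap. The level rose 2.18-fold (log2 fold change 1.13, standard error 0.22, 95% interval 0.61 to 1.64, adjusted p = 0.0368, edgeR), a fold change close to the limit of 1 for a call.

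**Figure D1:**
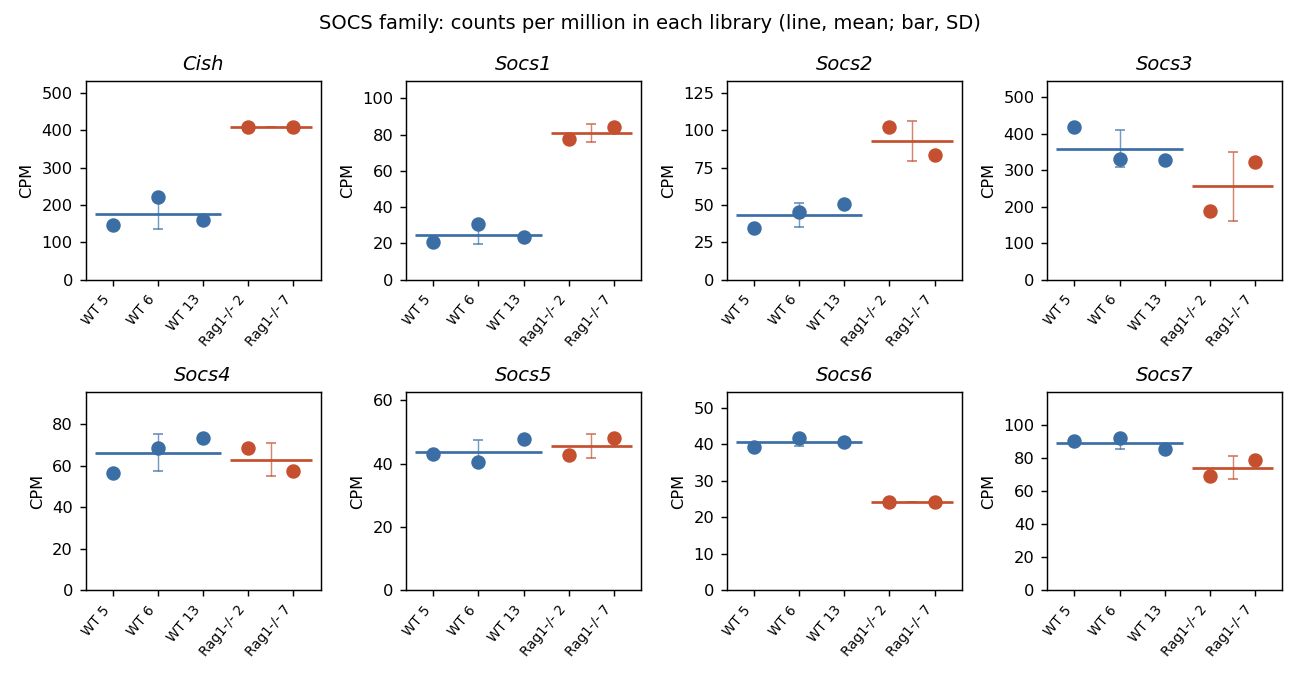
Level of each SOCS family member in every library, as library-scaled counts (CPM, vertical axis from 0) for WT pools 5, 6 and 13 (blue) and Rag1-/- pools 2 and 7 (red), with horizontal lines for group means and bars for the SD. *Cish*, *Socs1* and *Socs2* sit higher in both Rag1-/- libraries than in any WT library (*Cish* at 408 and 409 CPM against at most 221 CPM), *Socs6* sits lower in both, and *Socs3* differs more between the Rag1-/- libraries (188 and 322 CPM) than the WT libraries do.

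*Socs3* (ENSMUSG00000053113, chr11:117966079-117970047), which binds receptors of the IL-6 family and blocks JAKs there, was at 418, 329 and 329 CPM in WT pools 5, 6 and 13 and at 188 and 322 CPM in Rag1-/- pools 2 and 7. Pool 2 lay well below all other libraries, while pool 7 was just below the lowest WT library on plain CPM and overlapped the WT range on TMM-scaled CPM (334 CPM against 323 CPM in WT pool 13). The log2 fold change of -0.45 (standard error 0.29, 95% interval -1.14 to 0.24, adjusted p = 0.382, edgeR) was not called. It was -0.99 (adjusted p = 0.0483) without Rag1-/- pool 7 and -0.08 (adjusted p = 0.839) without Rag1-/- pool 2, so that its size depended on which of these libraries was used.

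*Socs6* (ENSMUSG00000056153, chromosome 18), an adaptor and ligase subunit linked to receptor tyrosine kinases, was at 39.4, 41.9 and 40.7 CPM in WT pools 5, 6 and 13 and at 24.1 CPM in both Rag1-/- pools. The spread within each genotype was small (SD 1.23 CPM, n = 3, and 0.0172 CPM, n = 2) beside the difference of the means, 40.7 against 24.1 CPM. The log2 fold change of -0.72 (standard error 0.18, 95% interval -1.15 to -0.29, adjusted p = 0.0621, edgeR) passed neither limit. DESeq2 gave an adjusted p of 0.00836 with a log2 fold change of -0.76, still smaller than the fold required for a call.

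*Socs7* (ENSMUSG00000038485, chr11:97362551-97398542), a member with a nuclear shuttling adaptor role, was at 90.0, 92.3 and 85.1 CPM in WT pools 5, 6 and 13 and at 69.2 and 78.8 CPM in Rag1-/- pools 2 and 7. These ranges did not overlap, but the log2 fold change was -0.23 (standard error 0.18, 95% interval -0.67 to 0.20, adjusted p = 0.48, edgeR). *Socs4* (ENSMUSG00000048379, chr14:47276931-47296098) and *Socs5* (ENSMUSG00000037104, chr17:87107679-87137583), a closely related pair known for acting on the epidermal growth factor receptor, overlapped between genotypes. *Socs4* ranged from 56.3 to 73.6 CPM in WT and from 57.3 to 68.4 CPM in Rag1-/- libraries (log2 fold change -0.05, 95% interval -0.52 to 0.43, adjusted p = 0.92, edgeR). *Socs5* ranged from 40.4 to 47.8 CPM and from 42.9 to 48.3 CPM (log2 fold change 0.10, 95% interval -0.35 to 0.54, adjusted p = 0.798, edgeR). The intervals of these 3 members lie inside the log2 fold change limit of 1 in either direction.

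The 3 calls needed nearly all libraries. Without any one of WT pools 5, 6 or 13 or Rag1-/- pool 2, edgeR called 0 members, and 0 genes of the whole table, with 4 members and between 3521 and 5200 genes at an unadjusted p under 0.05. Without Rag1-/- pool 7, which left 1 Rag1-/- library, the log2 fold changes were 1.58 (*Socs1*), 1.15 (*Cish*) and 1.18 (*Socs2*). Over these 5 fits the log2 fold change stayed between 1.58 and 1.93 for *Socs1* (adjusted p 0.0193 to 0.109), between 1.13 and 1.45 for *Cish* (0.0438 to 0.127) and between 0.98 and 1.24 for *Socs2* (0.0305 to 0.112). With all libraries thinned to the total of Rag1-/- pool 2, *Socs2* had a log2 fold change of 1.02 and an adjusted p of 0.0539 (edgeR). In that fit 2 members were called, beside 995 of 15253 genes in either direction.

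The members that rose and the leukocyte genes were both higher in Rag1-/- than in WT libraries, which restates the genotype difference of each. Within WT, pool 5 was lowest for the leukocyte sum (1128 CPM) and for *Cish*, *Socs1* and *Socs2*. WT pools 6 and 13 had similar sums (2673 and 2664 CPM), with *Cish* at 221 and 160 CPM. The plot of members against the leukocyte sum shows the Rag1-/- libraries above and to the right of those from WT. In a bulk library, fewer cells of a type and less RNA per cell cannot be told apart. Libraries were therefore also scaled on the 26 pan-leukocyte genes alone, which moved the median log2 fold change of all genes to -2.21. On this scale *Socs1* was at -0.42 (adjusted p = 0.558), *Cish* at -0.92 (adjusted p = 0.21) and *Socs2* at -1.03 (adjusted p = 0.159), and none of them was called (edgeR). The other 5 members were called lower, from *Socs5* at -2.13 (adjusted p = 0.00795) to *Socs6* at -2.95 (adjusted p = 0.000832), where 73.6% of all genes were called lower and 0.0842% higher. Relative to the median of all genes on that scale, *Socs1* stood at 1.79, *Cish* at 1.29, *Socs2* at 1.18, *Socs3* at -0.54 and *Socs6* at -0.74. A change of scaling moves all genes by about the same amount, so the shift of every member downwards and its nearly constant distance from the median gene follow from the method.

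**Figure D2:**
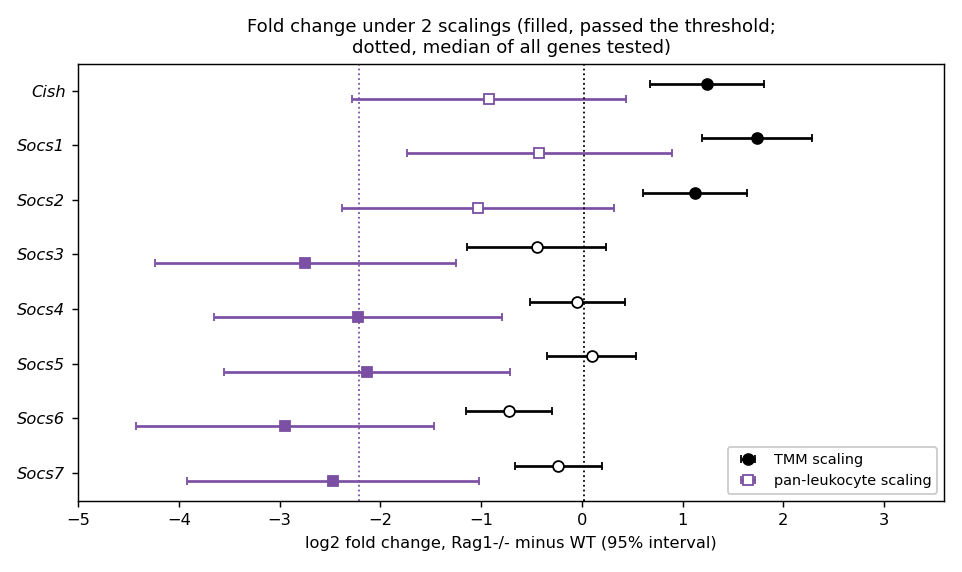
Log2 fold change, Rag1-/- minus WT, of each member with its 95% interval (horizontal axis) when libraries were scaled by TMM over all genes (black circles) or on 26 pan-leukocyte genes (purple squares). Filled symbols passed the threshold and dotted lines mark the median of all genes under each scaling (0.02 and -2.21). The scaling moves all genes by about the same amount: *Cish*, *Socs1* and *Socs2* pass as higher under TMM and are not called on the leukocyte scale, where the other 5 members pass as lower.

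Ratios to the leukocyte sum within a library need no scaling between libraries. The log2 ratio of *Socs1* to the summed pan-leukocyte genes was -5.78, -6.45 and -6.84 in WT pools 5, 6 and 13 and -6.84 and -6.52 in Rag1-/- pools 2 and 7, so the genotypes overlapped. For *Cish* the ratio was -2.94, -3.60 and -4.06 in WT and -4.44 and -4.24 in Rag1-/- libraries, lower without overlap. The other 6 members were also lower without overlap, as were 86.6% of all genes tested, with differences in the log2 ratio from -0.94 (*Socs2*) to -2.80 (*Socs6*). Against the keratinocyte sum, all 8 members were higher in both Rag1-/- libraries than in any WT library, as were 71.6% of all genes, by a log2 ratio from 0.89 for *Socs6* to 3.37 for *Socs1*. Both sums differ between the genotypes themselves, so these counts are not particular to the family. The part of the leukocyte and keratinocyte levels in the results for the members was not tested.

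**Figure D3:**
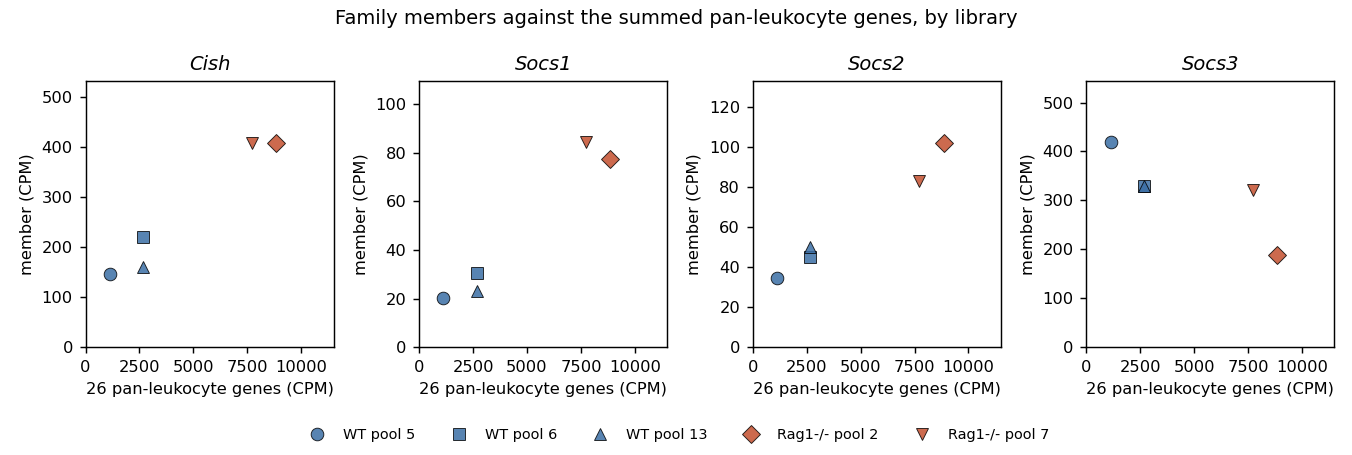
Level of *Cish*, *Socs1*, *Socs2* and *Socs3* (vertical axis, CPM) against the summed level of 26 pan-leukocyte genes (horizontal axis, CPM) in each library, with a symbol per library, WT in blue and Rag1-/- in red. The Rag1-/- libraries (7729 and 8847 CPM of leukocyte genes) lie to the right of the WT libraries (1128 to 2673 CPM) and above them for *Cish*, *Socs1* and *Socs2*, but not for *Socs3*.

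Markers of other skin and immune cells were read in the same way. A CD45+ gate is meant to exclude fibroblasts, endothelial cells and keratinocytes, yet transcripts of these cells were counted in every library. The keratinocyte sum was 34334 to 49141 CPM in WT libraries, beside 1128 to 2673 CPM for the pan-leukocyte genes. In Rag1-/- libraries it was 8384 to 19976 CPM beside 7729 to 8847 CPM. The levels of the members are those of the whole library and were not assigned to a cell type. Mature T cells do not form without *Rag1*, so genes of a T cell list do not measure T cells in Rag1-/- libraries. The sum of these genes ranged from 78.4 to 167 CPM in WT and from 447 to 496 CPM in Rag1-/- libraries. Of 12 tested, 4 were called higher (*Cd3g*, *Trac*, *Trbc2* and *Lat*), while *Cd3e* was at 5.46, 7.98 and 7.10 CPM in WT and 9.44 and 7.42 CPM in Rag1-/- libraries and *Cd8b1* was at 0 in all WT libraries. The fold change was positive for 11 of the 12, though small for *Trdc* (log2 fold change 0.18) and *Tcrg-C1* (0.01). *Cd5* went the other way, at 3.58, 2.61 and 2.00 CPM in WT and 1.37 and 0.67 CPM in Rag1-/- libraries (-1.48, adjusted p = 0.135, edgeR). Summed ILC3 genes ranged from 152 to 167 CPM in WT and from 258 to 390 CPM in Rag1-/- libraries, and 4 of 8 were called higher (*Il23r*, *Il22*, *Il17f* and *Ccr6*). ILC2 genes summed to between 1029 and 2106 CPM in WT and between 2947 and 4928 CPM in Rag1-/- libraries, with 4 of 13 called higher. Natural killer and ILC1 genes ranged from 29.3 to 95.5 CPM and from 222 to 261 CPM, with 2 of 8 called higher. Fibroblast (7433 to 13327 against 7921 to 8061 CPM), endothelial (275 to 466 against 140 to 309 CPM) and myeloid sums (423 to 973 against 418 to 897 CPM) overlapped, and the mast cell sum was lower in Rag1-/- libraries (96.7 to 119 against 38.8 to 91.5 CPM). None of the genes on these 4 lists was called by edgeR (1 endothelial and 1 mast cell gene had an unadjusted p under 0.05). No listed marker was at 0 in every library. The cells that gave these transcripts were not identified, and their part in the levels of the members was not tested.

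Within a library, members can be compared with each other without a scaling between libraries. Taken as counts per kilobase of exon, *Socs3* made up 69.2, 58.1 and 61.4% of the family signal in WT pools 5, 6 and 13 and 33.5 and 46.1% in Rag1-/- pools 2 and 7. *Cish* made up 11.0, 17.5 and 13.4% in WT and 32.8 and 26.4% in Rag1-/- libraries. The share of *Socs1* was 4.34% ± 0.988 (SD, n = 3) in WT and 12.8% ± 1.21 (SD, n = 2) in Rag1-/- libraries. *Socs2* held 2.33% ± 0.561 and 4.57% ± 1.35, and *Socs6* 1.83% ± 0.145 and 0.986% ± 0.153. *Socs7* held 6.24% ± 0.285 and 4.70% ± 0.295. The shares of these 6 members did not overlap between the genotypes, while those of *Socs4* and *Socs5* did. Shares add up to the whole family, so a lower share of *Socs3* by itself raises the others. By its own level *Socs3* was not called (adjusted p = 0.382, edgeR), and its fold change depended on which Rag1-/- library was used. Shares within a family have no counterpart over all genes, of which 45.5% did not overlap on TMM-scaled CPM. The mean share, Rag1-/- minus WT, differed by 15.6 percentage points for *Cish* and by -23.1 for *Socs3*. Summed over the family, the level was 850, 869 and 809 CPM in WT pools 5, 6 and 13 and 980 and 1107 CPM in Rag1-/- pools 2 and 7, with both Rag1-/- sums above those of WT.

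**Figure D4:**
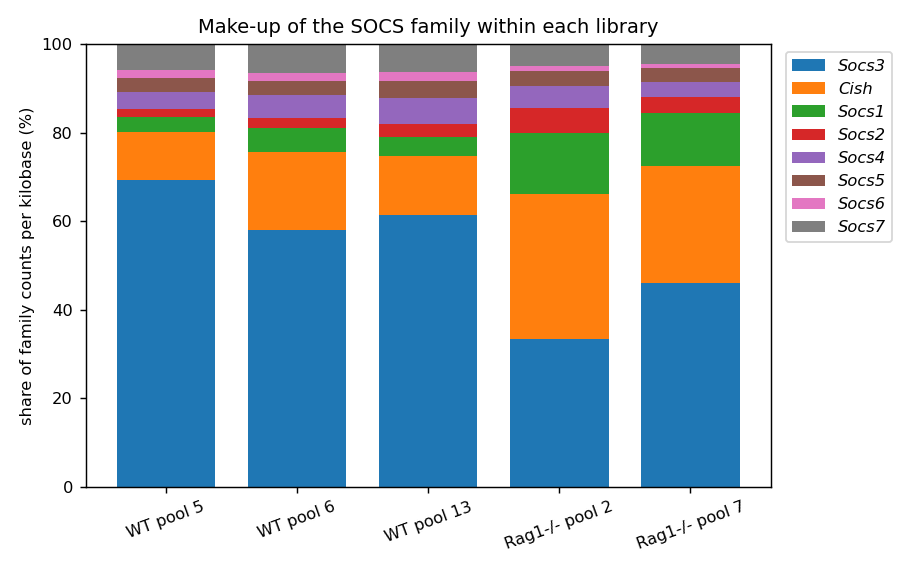
Share of each member in the summed counts per kilobase of the SOCS family (vertical axis, percent) in each library, stacked to 100%. *Socs3* takes 58.1 to 69.2% in the WT libraries and 33.5 to 46.1% in the Rag1-/- libraries, where *Cish* (26.4 to 32.8%) and *Socs1* (12.0 to 13.7%) take larger shares than in WT.

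The order of levels per kilobase of exon in WT libraries was *Socs3* (124 ± 17.8 CPM per kilobase, SD, n = 3), *Cish* (27.4 ± 6.13), *Socs7* (12.3 ± 0.501), *Socs4* (9.63 ± 1.29), *Socs1* (8.51 ± 1.78), *Socs5* (6.82 ± 0.59), *Socs2* (4.54 ± 0.841) and *Socs6* (3.58 ± 0.108). The neighbours *Socs4* and *Socs1*, *Socs1* and *Socs5*, and *Socs2* and *Socs6* overlapped between libraries. In Rag1-/- libraries *Socs3* (65.0 and 111 CPM per kilobase) and *Cish* (63.6 and 63.7) came first, and *Socs1* (26.6 and 29.0) stood in the third place, ahead of *Socs7*, *Socs2* and *Socs4*, which overlapped one another. This order depended on the gene model. With the transcript lengths deposited beside the counts, *Cish* (143 CPM per kilobase) stood above *Socs3* (99.9) in Rag1-/- libraries, and *Socs6*, with 715 deposited bases against 11349 in the union of its exons, moved from the last to the third place in WT.

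Ratios between members do not depend on length when 1 pair is followed across libraries. There were 2.84, 1.49 and 2.06 counts of *Socs3* for each count of *Cish* in WT pools 5, 6 and 13, and 0.46 and 0.788 in Rag1-/- pools 2 and 7. *Socs3* thus had more counts than *Cish* in every WT library and fewer in both Rag1-/- libraries. Of the 28 pairs of members, 22 had ratios that did not overlap between genotypes, against 45.5% of all pairs among the 18076 tested genes with a count in every library. The pairs share members and are not independent, so this count is a description. The largest shift was that of *Socs1* over *Socs6*, whose log2 ratio was higher by 2.48 in Rag1-/- libraries, followed by *Socs1* over *Socs3* (2.26). *Socs1* over *Cish* shifted by 0.49 without overlap (-2.83 ± 0.0411 in WT and -2.34 ± 0.086 in Rag1-/- libraries), whereas *Socs2* over *Cish* overlapped (-0.13).

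Likeness of profile was measured as the Euclidean distance between log2 CPM values centred over the 5 libraries, among 15020 genes. Within the family the closest pairs were *Socs4* and *Socs5* (0.428), *Socs5* and *Socs7* (0.445), *Socs4* and *Socs7* (0.504) and *Socs2* and *Cish* (0.521). Outside it, the genes nearest to *Socs1* were *Prr7* (0.171), *Cdk2ap2* (0.259) and *Lpcat1* (0.273). Nearest to *Cish* were *Madd* (0.111), *Chsy1* (0.124) and *Gpr35* (0.126), and nearest to *Socs2* were *Gm16998* (0.103), *Ldoc1l* (0.128) and *Lmnb1* (0.133). *Socs6* was followed most closely by *Chdh* (0.123), *Snx27* (0.124) and *Trib1* (0.129). With 5 libraries many genes lie nearly as close, for example 99 within a distance of *Socs1* that is at most double that of *Lpcat1*.

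The partners with which SOCS boxes form a ubiquitin ligase did not pass the threshold in either direction. Of 7 tested, 0 were called by edgeR and 0 by DESeq2, with a median log2 fold change of 0.12. At an unadjusted p under 0.05 (edgeR) there were 0, beside 5022 of 19011 genes over the whole table. Elongin B (*Elob*, listed as *Tceb2*) was at 35.0, 32.1 and 37.4 CPM in WT and 34.9 and 60.4 CPM in Rag1-/- libraries (log2 fold change 0.50, adjusted p = 0.288). Elongin C (*Eloc*, listed as *Tceb1*; 0.13, adjusted p = 0.769), the scaffold *Cul5* (-0.36, adjusted p = 0.326) and the RING subunit *Rnf7* (0.12, adjusted p = 0.819) had smaller fold changes. Of 20 other proteins with a SOCS box that were tested, out of 26 listed, 2 rose. *Asb1*, an ankyrin repeat ligase subunit, was at 7.19, 8.76 and 8.99 CPM in WT and 23.1 and 19.8 CPM in Rag1-/- libraries (log2 fold change 1.39, adjusted p = 0.0306). *Spsb1*, which targets inducible nitric oxide synthase, was at 24.0, 27.7 and 29.9 CPM and at 55.6 and 55.9 CPM (1.07, adjusted p = 0.0312).

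Other inhibitors of JAK and STAT signaling were not called either. Of 12 tested, 0 passed with edgeR and 1 with DESeq2, and the median log2 fold change was 0.12. An unadjusted p under 0.05 (edgeR) was found for 3, beside 5022 of 19011 genes over the whole table. The STAT phosphatase *Ptpn2* had a log2 fold change of -0.11 (adjusted p = 0.753, edgeR). Those 3 were the phosphatase *Ptpn6* (0.64, adjusted p = 0.0974), *Sh2b3* (0.70, adjusted p = 0.0658) and *Ptprc* (1.63, adjusted p = 0.103), all edgeR. *Ptprc* is also 1 of the pan-leukocyte genes used for scaling. Upstream, 2 of 4 JAKs rose. *Jak3*, which serves receptors with the common gamma chain, was at 25.4, 36.5 and 27.7 CPM in WT and 153 and 87.3 CPM in Rag1-/- libraries (log2 fold change 2.03, adjusted p = 0.0306). *Tyk2*, which serves IL-12, IL-23 and type I interferon receptors, was at 50.5, 58.8 and 51.9 CPM and at 138 and 86.0 CPM (1.08, adjusted p = 0.0433). *Jak2* (0.87, adjusted p = 0.143) and *Jak1* (0.09, adjusted p = 0.829) were not called.

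Over the 7 STATs tested, the median log2 fold change was 0.85. *Stat5a*, which carries signals of IL-2 and IL-7 receptors, was at 67.0, 66.1 and 72.6 CPM in WT and 140 and 102 CPM in Rag1-/- libraries, and its log2 fold change of 0.85 had an adjusted p of 0.0495 but was below the fold limit. *Stat5b* (0.59, adjusted p = 0.114) and *Stat3* (0.19, adjusted p = 0.64) were not called. Among other genes that STATs are known to induce, 3 of 16 rose and 1 fell. The survival kinase *Pim2* (log2 fold change 1.73, adjusted p = 0.0309), the anti-apoptotic *Bcl2l1* (1.28, adjusted p = 0.0369) and the cytokine *Osm* (2.19, adjusted p = 0.047) rose, and the growth regulator *Myc* fell (-1.10, adjusted p = 0.0329).

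Cytokine receptor chains that use JAKs moved in both directions. Of 40 tested, 11 rose and 6 fell, with a median log2 fold change of 0.58. The IL-23 receptor chain *Il23r* was at 1.16, 1.29 and 1.40 CPM in WT and 17.0 and 12.2 CPM in Rag1-/- libraries (log2 fold change 3.53, adjusted p = 0.0306). *Crlf2*, the receptor chain for the epithelial cytokine TSLP, rose as well (1.37, adjusted p = 0.0306). The prolactin receptor *Prlr* (-1.80, adjusted p = 0.0306) and *Il20ra*, a receptor chain for IL-20 family cytokines (-1.93, adjusted p = 0.0306), fell. Over these 7 lists together, 19 of 106 genes tested were called higher and 7 lower, beside 3.57% and 2.16% of all genes. With libraries scaled on the pan-leukocyte genes, 0 were called higher and 63 lower, beside 0.0842% and 73.6% of all genes, so the directions given for these lists hold for the TMM scaling.

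**Figure D5:**
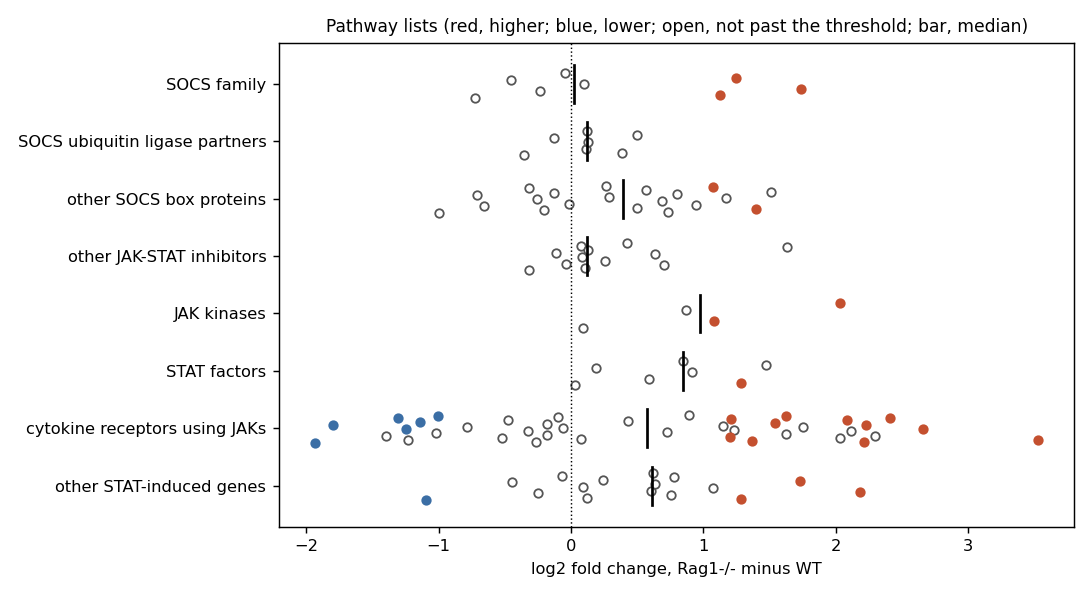
Log2 fold change, Rag1-/- minus WT (horizontal axis, TMM scaling), of each tested gene of the SOCS family and of 7 pathway lists, with a bar at each list's median. Filled red points were called higher, filled blue points lower and open points neither: 3 of 8 SOCS family members, 2 of 4 JAKs and 11 of 40 receptor chains are red, and none of the 7 ligase partners is coloured.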

How the data were processed

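RNA from 5 libraries, 3 of WT and 2 of Rag1-/- dILC2 pools, had been prepared with an unstranded poly(A) kit and sequenced as single reads of 50 bases. Per the labels, the authors aligned reads to GRCm38 with STAR 2.5 and counted them per gene with featureCounts 1.5.0-p1 on Ensembl release 103. The paper's methods name another release, and GRCm39 is also listed among the builds. The deposited read counts per gene entered all main tests. The authors also deposited a normalized signal per gene, used as an alternative only, and 1 transcript length per gene.

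Genes were filtered with filterByExpr, scaled by TMM and tested with edgeR 4.0.16 (quasi-likelihood test, two-sided, genotype as the only term) in R 4.3.3, with Benjamini-Hochberg adjustment over all genes tested. The study used DESeq2 1.8.2 with the same thresholds, and DESeq2 1.42.0 was an alternative here. On simulated counts of 19011 genes for this comparison, edgeR recovered 175 of 200 changed genes with 19 false calls, and DESeq2 189 with 70. The planted fold changes were larger than that of any member and were set only in genes above a minimum CPM. The recovery therefore does not apply to differences of the size seen in the members. Pools came from different mice. Intervals at a level of 95% are for the mean difference between genotypes, with an error taken from the variation between pools. They do not describe the spread between single mice. Exon lengths are unions over GENCODE M21, and promoters are from RefSeq. The alternatives changed the test, the scaling, the minimum count (10 per library, or none), the depth, the unit (limma 3.58.1 on log2 of the deposited signal with a pseudocount of 1), the length scale and the libraries used, and are named in the closing section. Deposited transcript length was added as a length scale after the gene models were seen.

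The members and lists were chosen with earlier results of these data known. Named genes were all members, the genes past the threshold in each list (or the 4 with the smallest p), a fixed set of JAKs, STATs, ligase partners and phosphatases, and the 3 genes nearest to each of the 4 members with the largest fold change. Some further genes of the marker and inhibitor lists were named to show the spread within a list. Of the listed symbols, 2 were matched by gene ID, and 2 had several IDs, of which the one with most counts was used. The values of some listed genes are not reported here.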

Additional observations from a re-analysis of the deposited data

How the results depend on the processing

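The count of 3 members called, all higher, was the same with DESeq2, a robust fit, RLE scaling, library size alone, a minimum of 10 counts per library, no minimum, calls by adjusted p only and limma on the deposited signal. It was 2 with libraries thinned to the shallowest. Scaling on pan-leukocyte genes gave 5 members, 0 higher and 5 lower. On that scale the fold changes reversed to -0.42 (*Socs1*), -1.03 (*Socs2*), -0.92 (*Cish*) and -2.13 (*Socs5*), and *Socs3* (-2.74), *Socs4* (-2.22), *Socs6* (-2.95) and *Socs7* (-2.47) passed as lower; by its construction this scaling moved all genes. Thinning left *Socs2* at 1.02 and turned *Socs5* to -0.10. The number of genes called was 2453 with DESeq2 (1197 higher, 1256 lower), 14006 with pan-leukocyte scaling (16 higher, 13990 lower) and 2645 with no minimum count (1157 higher, 1488 lower), and 641 were lower with a minimum of 10 counts per library; the cause was not tested. Pathway genes called were 0 higher and 63 lower with pan-leukocyte scaling, and 28 higher and 9 lower with DESeq2. Leaving out 1 library at a time gave 0 to 2409 genes (0 to 814 higher, 0 to 1595 lower) and 0 to 3 members, all higher. The log2 fold changes then ranged from 1.58 to 1.93 for *Socs1*, 0.98 to 1.24 for *Socs2*, 1.13 to 1.45 for *Cish*, -0.99 to -0.08 for *Socs3*, -0.15 to 0.03 for *Socs4*, -0.09 to 0.21 for *Socs5*, -0.82 to -0.69 for *Socs6* and -0.43 to -0.11 for *Socs7*. Where 1 Rag1-/- library remained, it was assumed to vary like the WT libraries. *Socs4* turned to 0.0285 without WT pool 13 and *Socs5* to -0.0885 without Rag1-/- pool 7, both far from the threshold. The difference in share within the family kept its sign on each length scale, 15.6 to 18.5 percentage points for *Cish* and -23.1 to -18.5 for *Socs3*. No paired analysis was possible because the groups share no replicate numbers. Rag1-/- pool 2 held 8050562 counts, and 3 counts there are 0.373 CPM, below the level of every member.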
